A study of Drosophila melanogaster with 18 samples.

Results

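The response of larval neurons to knockdown of shep was measured by RNA sequencing in Drosophila melanogaster. The comparison used 6 of the 18 libraries of the study, chosen by their labels alone: 3 libraries of neurons with shep RNAi and 3 of control neurons, all from third-instar larvae. The RNAi animals carried elav>shep-RNAi with Dcr and mCD8::GFP, and the control animals carried elav>Dcr, mCD8::GFP without the RNAi transgene. Dcr, a Dicer transgene that boosts RNAi, and mCD8::GFP, a membrane-bound fluorescent protein, were therefore present in both groups, and flies of both were raised at 25 °C on cornmeal food. The elav driver is active mainly in neurons, so the knockdown and the marker used for sorting covered the same cells. Pupal (P14) neurons of the same genotypes and BG3 cells, a line from the larval central nervous system treated with dsRNA against shep or GFP, made up the other libraries. Whether the replicates came from separate groups of animals is not stated in the labels, and every p value below therefore measures only the spread between these libraries, which may be technical.

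The product of shep (alan shepard) binds RNA through RNA recognition motifs and is abundant in the nervous system. It is known for restraining the activity of chromatin insulators, DNA elements that separate regulatory domains, and for the remodelling of neurons during metamorphosis. In larvae the central brain and nerve cord hold differentiated larval neurons beside immature adult neurons that are still being born, and third-instar animals are about to enter metamorphosis.

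Read counts per gene were scaled between libraries and are given as CPM (count divided by the scaled library total, the usual unit of relative level). Total counts were 9134690 to 10793289 in RNAi and 9984725 to 12910603 in control libraries. Control replicate 1 stood apart. Its chi-square per gene was 19.3 and 20.6 against the other 2 controls, where sampling noise alone gives about 1, against 4.91 between those and 5.64 to 12.7 among the RNAi libraries. The first principal component of the 6 libraries held 29.8% of the variance and separated RNAi from control, and the second held 20.3% and set control replicate 1 furthest from the other controls. Neuronal markers were high in both groups: elav, the pan-neuronal RNA-binding protein, stood at 2457 ± 60.3 CPM in control and 2677 ± 142 CPM in RNAi neurons (SD, n = 3), and 0 of 10 neuronal markers passed the test. Progenitor markers were present too, with the neuroblast genes ase at 97.9 ± 13.3 and 103 ± 12.6 CPM, wor at 103 ± 35.2 and 106 ± 5.44 CPM and dpn at 28.0 ± 8.93 and 29.4 ± 1.74 CPM in control and RNAi neurons. The glial regulator repo stood at 8.38 ± 2.58 and 9.83 ± 1.37 CPM, and the 12 glial markers together summed to 197 to 257 CPM in control and 239 to 253 CPM in RNAi libraries. Markers of fat body summed to at most 5.89 CPM in any library and markers of hemocytes to at most 58.6 CPM. None of the glial, progenitor, fat body or hemocyte markers passed the test by edgeR, and with an unadjusted p under 0.05 there were 2 higher glial markers, 1 higher progenitor marker, and 1 higher and 2 lower hemocyte markers. The glial ones were gcm (45.3 ± 9.43 and 59.9 ± 3.74 CPM in control and RNAi neurons) and moody (5.80 ± 0.27 and 7.46 ± 1.85 CPM). The progenitor marker was klu (43.9 ± 7.11 and 59.3 ± 3.56 CPM). Of the hemocyte markers srp was higher (2.97 ± 1.61 and 5.81 ± 1.00 CPM). Lower were Col4a1 (3.64 ± 1.66 and 0.84 ± 0.30 CPM) and crq (11.3 ± 0.10 and 8.36 ± 0.12 CPM). Their edgeR adjusted p ran from 0.109 to 0.553. Of all genes tested 4.35% were higher and 4.34% lower with an unadjusted p under 0.05. The part of these other cell types in the results below was not tested.

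A short list of genes differed between shep RNAi and control neurons. The RNAi transgene was present in the RNAi group alone. Its own effects and those of lower shep therefore cannot be told apart in this design, for any gene below. Of 8784 genes tested with edgeR's quasi-likelihood test, 32 passed a Benjamini-Hochberg adjusted p of 0.05 (0.364%), 15 of them higher (0.171%) and 17 lower (0.194%) in RNAi neurons. With another scaling of the libraries, RLE size factors, 24 were higher and 17 lower. The median log2 fold change over all genes tested was 0.00 (-0.0045), and 5% of genes lay below -0.36 and 5% above 0.44. Among the 32 genes the median absolute log2 fold change was 0.73, and 12 changed at least 2-fold, 6 up and 6 down. In each of the 32 the 3 RNAi libraries lay entirely above or entirely below the 3 control libraries, which was so for 15.5% of all genes tested, 6.94% with RNAi higher and 8.58% with RNAi lower. An exact permutation test of 3 against 3 libraries cannot give a 2-sided p below 0.1, and each of the 32 gave that value. An unadjusted p under 0.05 was reached by 763 genes (8.69%), 382 higher (4.35%) and 381 lower (4.34%).

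**Figure D1:**
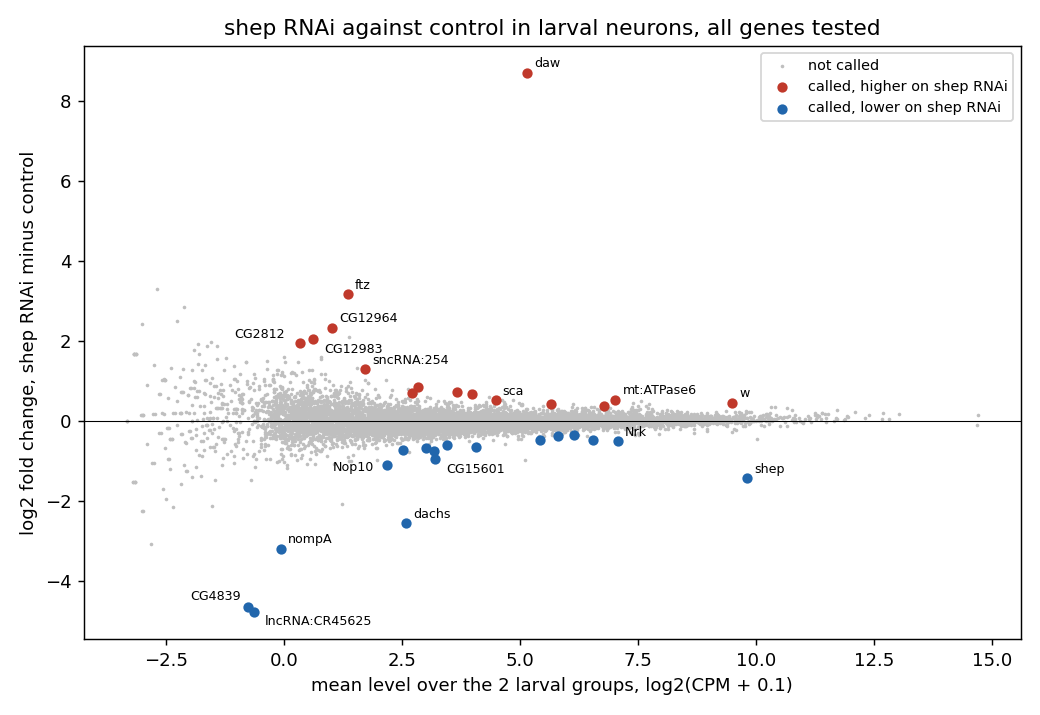
Log2 fold change of shep RNAi minus control in larval neurons (vertical axis) against the mean level over both groups, log2(CPM + 0.1) (horizontal axis), for the 8784 genes tested. Red points are the 15 genes called higher, blue points the 17 called lower and grey points the genes not called; daw, at 8.70, lies far from all other genes.

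The calls rested unequally on single libraries. Of the 32 genes, 8 were called in every fit that left out 1 library: daw, shep, dachs, ftz, CG12964, nompA, Nrk and CG4839. All of these but CG4839 were also called under each of 23 alternative fits, and CG4839 missed the threshold with DESeq2 (adjusted p = 0.0630). Without control replicate 1, the library that stood apart, 42 genes passed and 23 of the 32 were among them. Without RNAi replicate 1 only 10 genes passed, all among the 32. The other leave-one-out fits called 27 (without control replicate 2), 20 (without control replicate 3), 19 (without RNAi replicate 2) and 24 genes (without RNAi replicate 3). The estimate of spread was shared with the pupal libraries, and leaving out 1 pupal library gave 28 to 52 calls. Without pupal control replicate 3 the calls of Dyb, CG10444, lute, CG9344, Fpps, ACC, CG12983 and CG2201 were lost, and without pupal RNAi replicate 2 those of lute, Fpps, ACC, CG12983 and CG2201. Ranges of adjusted p given below for lost calls are over the fits without 1 larval library; calls lost under other settings are named in the closing section. A gene that missed the threshold is not thereby shown to be unchanged.

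The targeted gene was lower in every RNAi library. shep (FBgn0052423, arm 3L of dm6 from 5155821 to 5277944, minus strand) stood at 1200, 1333 and 1402 CPM in control replicates 1 to 3 and at 505, 458 and 488 CPM in RNAi replicates 1 to 3. The groups were far apart, and the knockdown was even among the 3 RNAi libraries. This is a log2 fold change of -1.44 ± 0.11 SE (adjusted p = 4.93e-09 by edgeR), a mean fall of 63.1%. In bulk libraries fewer cells with a transcript and less transcript per cell cannot be told apart, here and for every gene below. Dcr-2, the Dicer gene of the RNAi pathway, was measured at 1202 ± 80.4 CPM in control and 1092 ± 95.2 CPM in RNAi neurons (log2 fold change -0.14, edgeR adjusted p = 0.811). roX1, a male-specific noncoding RNA of dosage compensation, stood at 97.0 ± 21.0 and 99.4 ± 10.8 CPM, with overlapping groups, while roX2 was under 1 CPM in each library and was not tested.

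Apart from shep, 0 genes of the lists of neuronal RNA-binding proteins and of insulator and chromatin genes passed the test. Of 36 neuronal RNA-binding protein genes 1 was called, shep itself, and the list median was 0.02. The members nearest to the threshold were how at 0.35, Hrb98DE at 0.22 and bru1 at 0.19 (log2 fold changes, edgeR adjusted p = 0.391, 0.417 and 0.553). Of 26 insulator and chromatin genes tested, 1 was called, again shep, with a median of -0.03. Its list holds the zinc-finger insulator factor gene CTCF, which was 65.3 ± 5.08 CPM in control and 61.9 ± 4.26 CPM in RNAi neurons, and M1BP, which was 57.6 ± 3.82 and 50.6 ± 1.26 CPM (edgeR adjusted p = 0.877 and 0.653).

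The largest response was the rise of an activin-type ligand from near 0. daw (dawdle, FBgn0031461, arm 2L from 2805261 to 2812376, plus strand) encodes a secreted TGF-beta family ligand that signals through the type I receptor Baboon and the transcription factor Smox, and is known in larvae for effects on metabolism and on motor axon guidance. Control replicates 1 to 3 held 2, 3 and 2 daw reads, and RNAi replicates 1 to 3 held 1038, 857 and 802. daw was thus nearly undetected in each control library and present in each RNAi library, at 72.7, 73.2 and 67.3 CPM. The ratio of RNAi to control counts per scaled library was 447 (95% interval 217 to 1113, counting error only), and the fitted log2 fold change 8.70 ± 0.24 SE (adjusted p = 5.47e-18 by edgeR). Over the 23 alternative fits the log2 fold change ran from 8.47 to 8.98 and the gene was called in each.

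daw was the only TGF-beta family gene called, among its ligands, receptors and Smads alike. Of 5 ligand genes tested, the other activin-type ligands were mav at 25.2 ± 2.42 CPM in control and 30.0 ± 4.90 CPM in RNAi neurons, Actbeta at 44.1 ± 4.53 and 47.1 ± 3.70 CPM, and myo at 11.1 ± 0.66 and 11.7 ± 1.07 CPM (edgeR adjusted p = 0.550, 0.859 and 0.945). Of these mav was higher with an unadjusted p under 0.05 (0.0403 by edgeR, log2 fold change 0.25). So were 4.35% of all genes tested. The BMP ligand gbb was 5.07 ± 0.74 and 5.28 ± 0.61 CPM (adjusted p = 0.985), and dpp and scw did not pass the filter on low counts. Of 12 genes for receptors and cell-surface partners 0 were called, 1 of them higher with an unadjusted p under 0.05. These include babo, the type I receptor for Daw, at 173 ± 3.70 and 168 ± 5.57 CPM (log2 fold change -0.05, edgeR adjusted p = 0.916). The type II receptors put and wit stood at 77.3 ± 1.16 and 79.4 ± 1.48 CPM and at 88.8 ± 2.05 and 86.8 ± 2.41 CPM (adjusted p = 0.938 and 0.954). Of 7 genes for Smads and nuclear regulators 0 were called, 1 of them higher with an unadjusted p under 0.05, and their median was 0.13. Smox, the activin-pathway Smad, was 480 ± 13.9 CPM in control and 452 ± 6.83 CPM in RNAi neurons, and Mad, its BMP counterpart, 51.5 ± 4.87 and 58.1 ± 2.48 CPM (edgeR adjusted p = 0.821 and 0.597). shn, a zinc-finger cofactor of BMP signalling, had the smallest p of that list, with 45.04 ± 4.45 and 57.3 ± 3.39 CPM (log2 fold change 0.35, edgeR adjusted p = 0.153).

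The atypical myosin gene dachs had the largest fall among genes above 5 CPM. Dachs (FBgn0262029, arm 2L from 8466817 to 8488671, plus strand) acts at the cell membrane under the protocadherins Fat and Dachsous, which set planar polarity and restrain growth through the Hippo pathway. Levels were 8.63, 12.7 and 9.34 CPM in control and 2.03, 1.79 and 1.26 CPM in RNAi libraries. The RNAi libraries lay well below the lowest control and gave a log2 fold change of -2.56 ± 0.27 SE (adjusted p = 4.91e-06 by edgeR), a mean fall of 83.4%. None of its upstream or downstream partners that were tested was called. Dlish, Fbxl7, lft and dgo did not pass the filter on low counts, and no value was read for the Dachsous gene. Of 10 genes of the Fat, Dachsous and planar polarity list dachs was the only call, the list median was 0.06, and ft stood at 18.2 ± 0.59 CPM in control and 17.8 ± 2.13 CPM in RNAi neurons (edgeR adjusted p = 0.983). fj, a Golgi kinase that modifies the protocadherins, had 3.60 ± 0.39 and 5.001 ± 0.93 CPM (log2 fold change 0.47, adjusted p = 0.553). Of 15 Hippo pathway genes 0 were called by edgeR, with a median of -0.06. Of these 1 was higher with an unadjusted p under 0.05, against 4.35% of all genes tested. That gene was the upstream regulator kibra, at 16.4 ± 2.76 and 21.4 ± 1.60 CPM (log2 fold change 0.38, adjusted p = 0.253), while the effector yki was 29.8 ± 2.16 and 28.2 ± 2.15 CPM (adjusted p = 0.896). Of 15 myosin genes dachs was again the only call, with Myo10A at 0.86 and Myo81F at -0.22 next in order of p (log2 fold changes, adjusted p = 0.343 and 0.571).

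**Figure D2:**
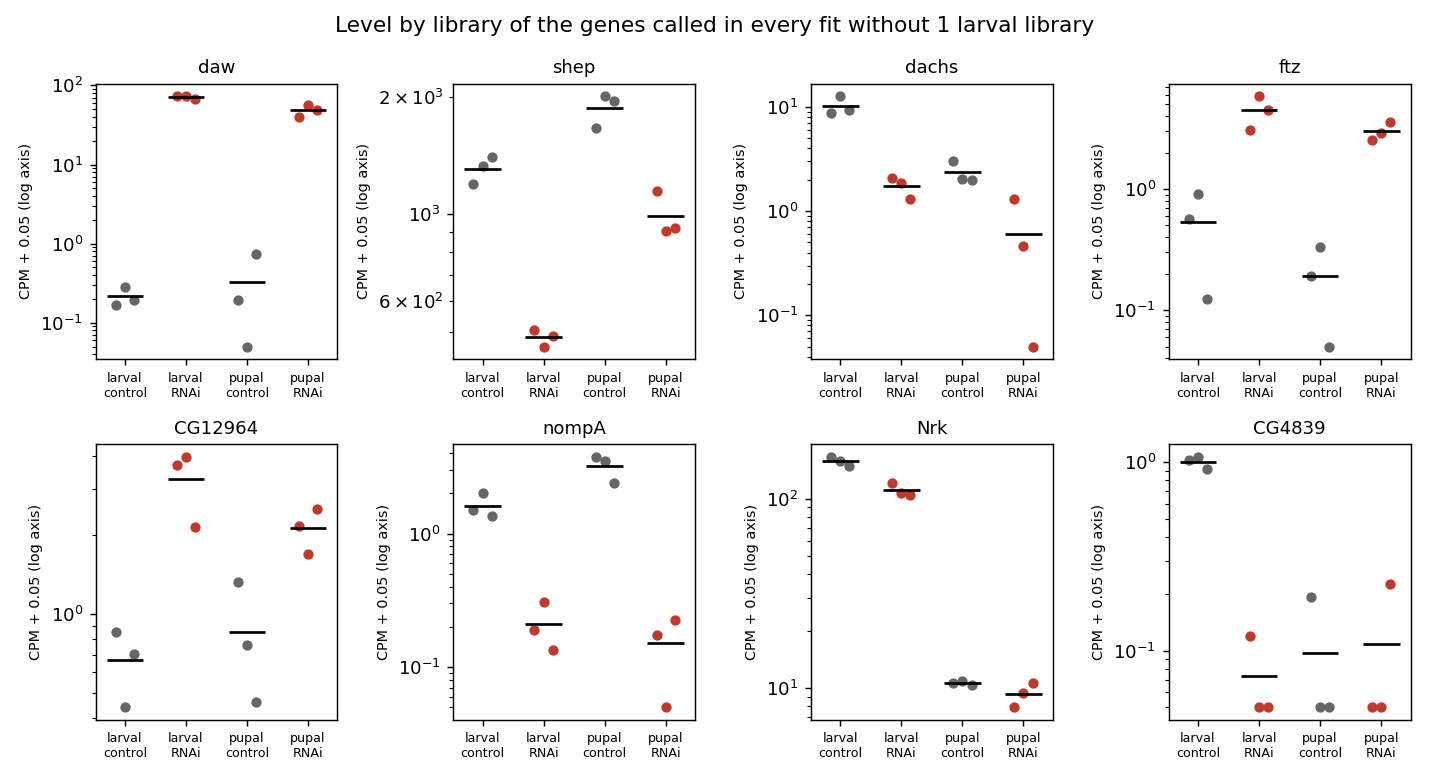
Level of each of the 8 genes called in every fit without 1 library, as CPM + 0.05 on a log axis, in the larval and pupal control (grey) and RNAi (red) libraries. Each point is a library and each bar the mean of 3 libraries. In every panel the larval RNAi points lie entirely on one side of the larval control points.

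Several further genes with a large fold change had few counts, and 8 of the 32 lay under 5 CPM in both groups. The homeobox gene ftz (fushi tarazu), a pair-rule gene of the embryo that is later expressed in subsets of neurons, had 9, 11 and 1 counts in control and 43, 68 and 53 counts in RNAi libraries. All RNAi counts were above all control counts, at 3.01, 5.81 and 4.45 CPM (log2 fold change 3.16 ± 0.40 SE, with an edgeR adjusted p of 8.71e-05). Of 13 Hox genes and cofactors, which include the genes flanking ftz in the Antennapedia complex, 0 were called. With an unadjusted p under 0.05 there were 1 higher and 1 lower, against 4.35% and 4.34% of all genes tested. The higher one was not a Hox gene but the Polycomb gene Pc, at 114 ± 7.01 and 135 ± 8.67 CPM (edgeR adjusted p = 0.543). The lower one was abd-A, at 34.9 ± 9.24 and 26.7 ± 2.97 CPM, and Scr, the Hox gene beside ftz, stood at 9.47 ± 2.36 and 8.93 ± 1.00 CPM (adjusted p = 0.434 and 0.962). The uncharacterised gene CG12964 had 14, 5 and 9 counts in control and 52, 46 and 25 counts in RNAi libraries (log2 fold change 2.33 ± 0.35 SE, adjusted p = 0.00112). ftz and CG12964 were thus raised in all 3 RNAi libraries from a low level.

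nompA, lncRNA:CR45625 and CG4839 were nearly lost. nompA encodes a zona pellucida domain protein of the extracellular cap that couples mechanosensory cilia to the cuticle. It had 25, 25 and 18 counts in control and 2, 3 and 1 counts in RNAi libraries, a control to RNAi ratio of 9.77 (95% interval 4.26 to 27.5; log2 fold change -3.20, SE 0.49, edgeR adjusted p = 0.00135). CG4839 had 17, 13 and 12 counts in control and 1, 0 and 0 counts in RNAi libraries, a ratio of 36.2 (95% interval 6.15 to 1463, adjusted p = 0.00408). The noncoding RNA gene lncRNA:CR45625 had 18, 18 and 10 against 0, 1 and 0 counts, a ratio of 39.6 (95% interval 6.77 to 1599, adjusted p = 0.00585, and 0.0935 without RNAi replicate 1). The groups of all 3 genes were separate, but the intervals, which cover counting error only, leave the size of each fall wide. CG4839 overlaps CG44153 on the opposite strand, and its counts are uncertain because the strand setting of the counting is not given in the sources used here.

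CG2812 and CG12983 also rose from near 0. CG2812 had 10, 5 and 6 counts in control and 30, 24 and 17 in RNAi libraries (log2 fold change 1.95 ± 0.35 SE, with an edgeR adjusted p of 0.00814, and 0.0935 without RNAi replicate 1). It overlaps SERCA, the calcium pump gene, on the other strand, and reads of the pair cannot be told apart without strand. CG12983 had 8, 14 and 2 counts in control and 36, 32 and 20 in RNAi libraries (log2 fold change 2.05 ± 0.44 SE, adjusted p = 0.0474). Its call was lost without control replicate 1 or 3 or any 1 RNAi replicate (adjusted p = 0.0521 to 0.315). The 31-base noncoding gene sncRNA:254, inside the eEF2 gene, had 37, 24 and 21 against 86, 45 and 44 counts (log2 fold change 1.29 ± 0.29 SE, adjusted p = 0.0494). It was lost without any 1 larval library (0.0521 to 0.469), and its reads may belong to eEF2, since overlapping features were not resolved here.

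Among genes of the cell surface, 1 receptor kinase fell and 2 secreted or junctional proteins rose. Nrk (neurospecific receptor kinase), related to the muscle-specific kinase MuSK of vertebrates, stood at 166, 158 and 149 CPM in control and 121, 107 and 105 CPM in RNAi libraries. Every RNAi library was lower than every control (log2 fold change -0.51 ± 0.08 SE, with an edgeR adjusted p of 0.00184), a mean fall of 29.8%. Of 19 receptor tyrosine kinase genes Nrk was the only call. The median of the list was 0.08, and Tie and Pvr, with 1.72 ± 0.60 and 3.36 ± 0.65 CPM and with 1.77 ± 0.63 and 3.17 ± 0.32 CPM in control and RNAi neurons, had the next smallest p (log2 fold changes 0.98 and 0.87, adjusted p = 0.210 and 0.153). Nrk overlaps ND-MWFE, a complex I subunit gene.

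sca (scabrous) encodes a secreted fibrinogen-related glycoprotein that acts with Notch in spacing neural precursors. It stood at 18.2, 19.5 and 17.4 CPM in control and 28.4, 24.2 and 25.9 CPM in RNAi libraries (log2 fold change 0.52 ± 0.09 SE, with an edgeR adjusted p of 0.00814). The groups did not overlap, but the call was lost without control replicate 3 (0.0526) or RNAi replicate 1 (0.126). It was the only call among 21 Notch pathway and proneural genes, whose median was 0.10. The ADAM protease gene kuz, at 347 ± 2.60 and 393 ± 10.1 CPM (log2 fold change 0.18, adjusted p = 0.434), and the gamma-secretase subunit gene pen-2, at 6.95 ± 0.47 and 5.47 ± 0.94 CPM (-0.35, adjusted p = 0.554), followed in order of p.

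bark (bark beetle) encodes a large transmembrane protein of tricellular junctions, where 3 epithelial cells meet. It stood at 5.52, 4.69 and 4.93 CPM in control and 10.7, 9.13 and 7.30 CPM in RNAi libraries (log2 fold change 0.84 ± 0.17 SE, with an edgeR adjusted p of 0.0213). All RNAi values were above all control values, but the call was lost without control replicate 2 or 3 or RNAi replicate 1 or 2 (0.0937 to 0.315). None of the other septate and tricellular junction genes was called among 23 tested, and bark alone had an unadjusted p under 0.05. Dyb, which encodes dystrobrevin, a cytoplasmic partner of dystrophin, stood at 62.8 ± 2.54 CPM in control and 48.6 ± 1.92 CPM in RNAi neurons and fell (log2 fold change -0.37 ± 0.08 SE, adjusted p = 0.0422, and 0.0906 to 0.303 without control replicate 2 or 3 or any 1 RNAi replicate).

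Axon guidance, adhesion and recognition genes held 0 calls by edgeR. Of 63 axon guidance and adhesion genes, 51 had a positive log2 fold change, and 8 were higher and 0 lower with an unadjusted p under 0.05, with a list median of 0.07 against 0.00 over all genes. Over all genes tested 4.35% were higher and 4.34% lower at that level. The homophilic adhesion gene Con was closest, at 135, 151 and 152 CPM in control and 188, 175 and 198 CPM in RNAi libraries (log2 fold change 0.36 ± 0.08 SE, with an edgeR adjusted p of 0.0518). Fas3 at 0.29, kirre at 0.27 and trn at 0.23 followed (log2 fold changes, adjusted p = 0.253, 0.268 and 0.254). With the trend on gene length removed the list median was 0.03. Of 31 dpr and DIP genes, which encode immunoglobulin partners in synaptic recognition, 2 were higher and 4 lower with an unadjusted p under 0.05. dpr15 had 5.81, 6.10 and 7.60 CPM in control and 9.25, 11.3 and 8.73 CPM in RNAi libraries (log2 fold change 0.59, adjusted p = 0.0516). Of 21 beat and side genes 3 were higher and 1 lower, led by side-VII at 78.2 ± 2.97 and 95.1 ± 1.86 CPM (0.28, adjusted p = 0.0960).

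Genes of neuronal function held 0 calls by edgeR. Of 35 synaptic vesicle and active zone genes 0 were called, with 0 higher and 4 lower with an unadjusted p under 0.05 and a median log2 fold change of -0.06. Their smallest p belonged to alphaSnap, a factor of vesicle fusion, at 60.7 ± 3.82 CPM in control and 52.0 ± 1.71 CPM in RNAi neurons (edgeR adjusted p = 0.343). Of 21 transmitter synthesis and transport genes 0 were called, with 2 lower and a median of -0.12. These were Gad1, the GABA-synthesising enzyme, at 36.7 ± 6.40 and 28.6 ± 0.035 CPM, and the monoamine transporter Vmat at 15.9 ± 1.78 and 12.4 ± 1.08 CPM (adjusted p = 0.227 and 0.252). Of 43 transmitter receptor genes 7 were higher and 2 lower with an unadjusted p under 0.05 with a median of 0.13, led by the glutamate receptor GluRIB at 17.9 ± 1.72 and 21.8 ± 0.44 CPM (adjusted p = 0.289). For 24 voltage-gated channel genes the median was 0.05. None of these 4 groups held a gene that passed the test over all genes. The shares of all genes tested with an unadjusted p under 0.05 were 4.35% higher and 4.34% lower.

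**Figure D3:**
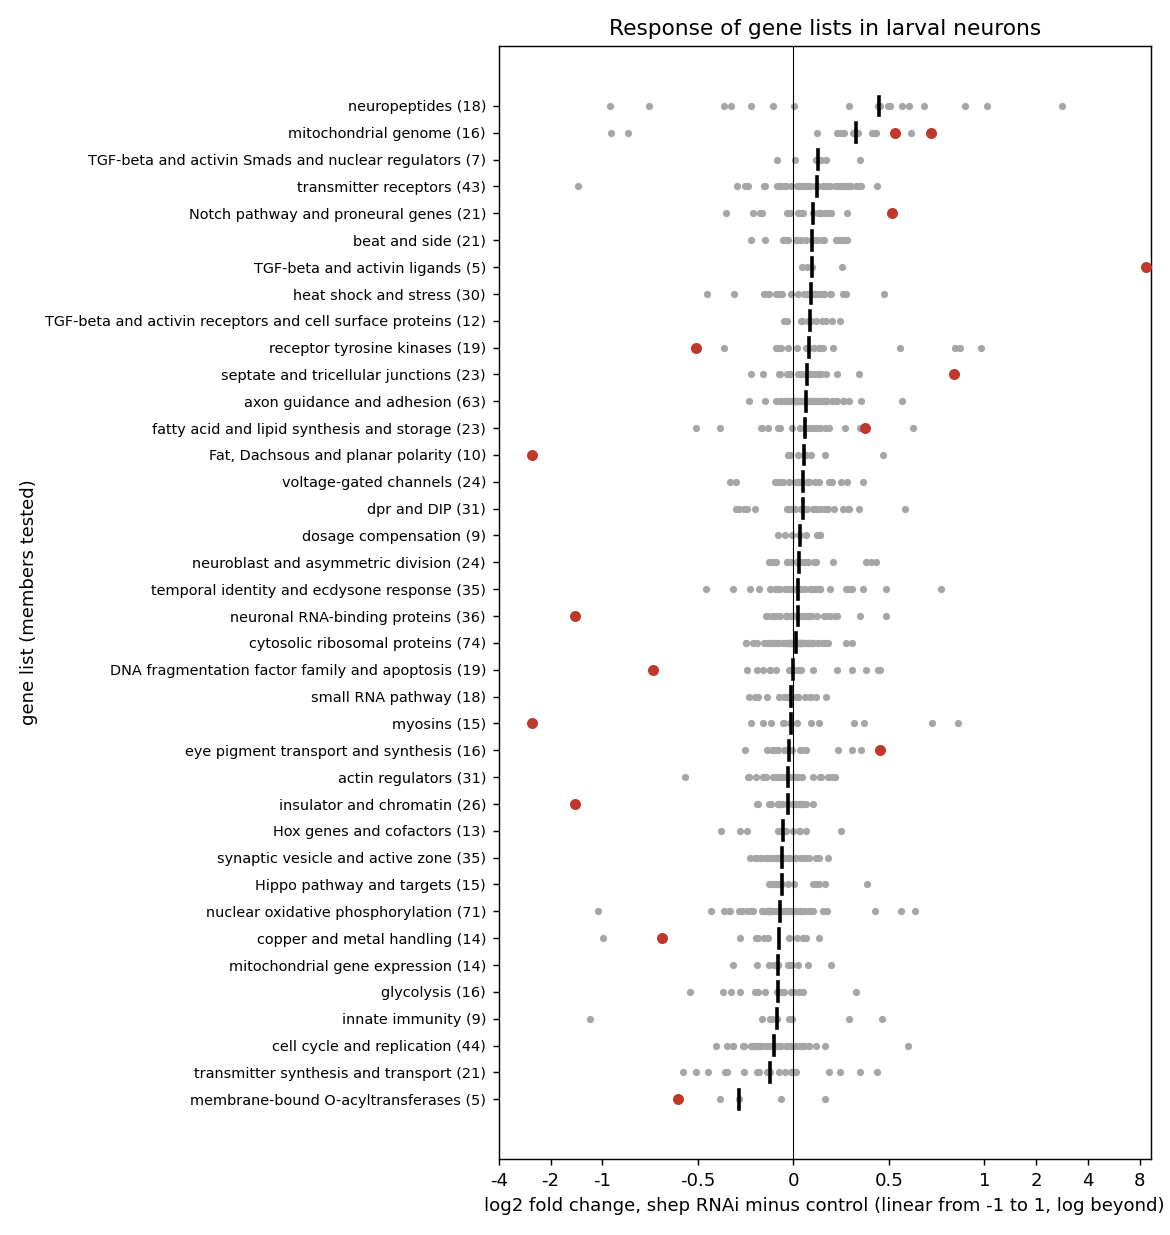
Log2 fold change of shep RNAi minus control in larval neurons for the tested members of each gene list (rows, number tested in brackets), on an axis that is linear from -1 to 1 and logarithmic beyond. Grey points are members not called, red points members called and black bars list medians; most lists center within 0.15 of 0 and hold no call or 1 call.

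Of the transcripts of the mitochondrial genome 2 rose. mt:ATPase6, a subunit of ATP synthase, stood at 104, 103 and 109 CPM in control and 140, 150 and 169 CPM in RNAi libraries (log2 fold change 0.53 ± 0.10 SE, with an edgeR adjusted p of 0.0103, but 0.0575 without control replicate 2 and 0.0871 without RNAi replicate 3). mt:ND2, of complex I, stood at 7.77, 9.77 and 11.01 against 14.4, 14.9 and 17.6 CPM (log2 fold change 0.72 ± 0.15 SE, adjusted p = 0.0303, lost without control replicate 1 or 2 or any 1 RNAi replicate at 0.0734 to 0.160, and in a fit of all 18 libraries at 0.495). These 2 were called of 16 genes tested, 7 were higher and 0 lower with an unadjusted p under 0.05, and the median was 0.33, or 0.29 to 0.43 without 1 larval library. Of all genes tested 0.364% were called, and 4.35% were higher and 4.34% lower with an unadjusted p under 0.05. mt:ND1, at 182 ± 5.24 and 245 ± 31.6 CPM, and mt:CoIII, at 1198 ± 82.0 and 1513 ± 100.1 CPM, were next (log2 fold changes 0.42 and 0.34, adjusted p = 0.314 and 0.397). The share of all counts on the mitochondrial genome was 1.17% to 1.32% in control and 1.37% to 1.57% in RNAi libraries, without overlap. The part in this of how much cytoplasm or organelle RNA each sort kept was not tested.

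Nuclear genes for energy metabolism and translation held 0 calls by edgeR. Of 71 nuclear oxidative phosphorylation genes 52 had a negative log2 fold change, with 1 higher and 5 lower with an unadjusted p under 0.05 and a median of -0.07. The ATP synthase alpha subunit gene blw led them, at 194 ± 27.0 CPM in control and 151 ± 5.14 CPM in RNAi neurons (log2 fold change -0.36, edgeR adjusted p = 0.234). Of 16 glycolysis genes 12 were negative, with 4 lower with an unadjusted p under 0.05 and a median of -0.08. These 4 were Pgi (-0.37), Pglym78 (-0.54), Tpi (-0.32) and Pgk (-0.28), with adjusted p of 0.233, 0.253, 0.253 and 0.469. Of 74 cytosolic ribosomal protein genes 0 were called, with 2 higher and 2 lower with an unadjusted p under 0.05, and the median was 0.01. Over all genes tested the median was -0.0045, and 4.35% were higher and 4.34% lower at that level.

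In lipid and terpenoid metabolism 1 enzyme gene rose and 2 fell. ACC, acetyl-CoA carboxylase, which commits carbon to fatty acid synthesis, rose from 95.8 ± 3.87 to 124 ± 11.3 CPM (log2 fold change 0.37 ± 0.08 SE, with an edgeR adjusted p of 0.0466, but 0.102 to 0.378 without control replicate 2 or 3 or RNAi replicate 1 or 2). It overlaps Nup44A on the opposite strand. Of 23 lipid synthesis and storage genes it was the only call, with the lipid droplet gene Lsd-2 next at 22.8 ± 1.36 and 29.0 ± 1.26 CPM (log2 fold change 0.35, adjusted p = 0.253). Fpps, farnesyl pyrophosphate synthase of the mevalonate pathway, fell from 49.6 ± 4.52 to 35.8 ± 3.38 CPM (-0.47, SE 0.10, adjusted p = 0.0466, but 0.0521 to 0.378 without control replicate 2 or 3 or any 1 RNAi replicate). frj (farjavit), a membrane-bound O-acyltransferase, stood at 14.3, 12.7 and 12.3 CPM in control and 8.76, 7.17 and 10.1 CPM in RNAi libraries (-0.60, SE 0.13, adjusted p = 0.0303, lost without any 1 control replicate or RNAi replicate 1 or 2 at 0.0513 to 0.235). It was the only one called of 5 members of its family tested.

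Of the copper handling genes 1 fell. Atox1, the chaperone that carries copper to the secretory pathway, stood at 9.26, 9.69 and 10.5 CPM in control and 5.18, 7.51 and 5.71 CPM in RNAi libraries (log2 fold change -0.68 ± 0.13 SE, with an edgeR adjusted p of 0.00900). The groups were separate, but the call was lost without control replicate 3, RNAi replicate 1 or RNAi replicate 3 (0.0521 to 0.193). The metallothionein gene MtnA, which binds excess metal, just missed the threshold at 3.22, 3.67 and 3.33 CPM in control and 1.26, 1.88 and 2.01 CPM in RNAi libraries (-0.996, SE 0.23, adjusted p = 0.0530). Of 14 copper and metal handling genes tested 4 were lower and 0 higher with an unadjusted p under 0.05, with Fer1HCH at -0.28 and Sod1 at -0.18 (adjusted p = 0.356 and 0.483). The median of the list was -0.08. Of all genes tested 4.34% were lower and 4.35% higher with an unadjusted p under 0.05.

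Cell death genes held 1 call, and it did not belong to the classical inducers. Drep3, of the family of DNA fragmentation factors with CIDE domains, stood at 7.08, 6.80 and 7.46 CPM in control and 4.34, 4.53 and 3.95 CPM in RNAi libraries (log2 fold change -0.73 ± 0.15 SE, with an edgeR adjusted p of 0.0265). The groups were well apart, but the call was lost without control replicate 3 or any 1 RNAi replicate (0.0770 to 0.175), and CG44314 overlaps the gene. The 4 inducers of apoptosis that block the inhibitor Diap1 were each higher with an unadjusted p under 0.05 without passing the test: rpr at 26.5 ± 2.20 and 36.4 ± 1.92 CPM (0.45, adjusted p = 0.0616), hid at 11.2 ± 0.58 and 14.6 ± 1.43 CPM (0.38, adjusted p = 0.343), grim at 37.8 ± 2.01 and 46.9 ± 4.14 CPM (0.31, adjusted p = 0.390) and skl at 43.5 ± 5.78 and 51.0 ± 3.30 CPM (0.23, adjusted p = 0.542). Of the 19 genes tested in that list 1 was lower and 4 were higher at that level, and the median was 0.00 (-0.0036). Of all genes tested 4.34% were lower and 4.35% higher at that level.

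The eye pigment gene w rose among genes of pigment transport and synthesis. w, an ABC transporter subunit for pigment precursors, stood at 604 ± 41.8 CPM in control and 828 ± 46.1 CPM in RNAi neurons (log2 fold change 0.46 ± 0.09 SE, with an edgeR adjusted p of 0.0270, but 0.0808 to 0.223 without control replicate 2 or 3 or RNAi replicate 1 or 2). Of 16 pigment genes tested it was the only call, and the next by p, the pink gene p, was 49.9 ± 4.89 and 42.02 ± 1.14 CPM (-0.25, adjusted p = 0.336). Fly transgenes often carry a w marker copy, and the RNAi genotype had a transgene that the control lacked, and the part of such a copy in the counts was not tested. The adhesion gene kirre overlaps w on the opposite strand, with a log2 fold change of 0.27.

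A protein gene of box H/ACA particles was called lower and a pseudouridine guide RNA gene higher. Nop10, a protein of the box H/ACA particles that convert uridine to pseudouridine, stood at 5.81, 6.57 and 5.79 CPM in control and 2.31, 2.90 and 3.19 CPM in RNAi libraries (log2 fold change -1.12 ± 0.20 SE, with an edgeR adjusted p of 0.00585, but 0.103 without RNAi replicate 1). It overlaps CG12935 on the opposite strand. scaRNA:PsiU1-6, a guide RNA for pseudouridine in U1 RNA, stood at 11.2, 12.7 and 12.6 CPM in control and 17.5, 17.2 and 23.2 CPM in RNAi libraries (0.67, SE 0.13, adjusted p = 0.0201, lost without control replicate 1 or 3 or RNAi replicate 1 or 3 at 0.0520 to 0.175). It lies within dmt, so that its reads may be those of that gene.

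The remaining calls were genes without a role given here. CG15601 stood at 12.1, 13.4 and 10.6 CPM in control and 5.53, 5.72 and 7.47 CPM in RNAi libraries (log2 fold change -0.95 ± 0.15 SE, with an edgeR adjusted p of 0.00262, and 0.0520 without RNAi replicate 1). CG10444 stood at 13.5, 10.6 and 9.42 against 7.29, 7.34 and 5.29 CPM (-0.76, SE 0.16, adjusted p = 0.0422, and 0.0632 to 0.207 without control replicate 1 or 2 or any 1 RNAi replicate). CG9344 stood at 19.4, 21.9 and 20.4 against 12.6, 12.04 and 14.2 CPM (-0.66, SE 0.15, adjusted p = 0.0466, and 0.0745 to 0.315 without control replicate 2 or 3 or any 1 RNAi replicate). In each of these 3 the RNAi libraries lay below the controls. CG2201 was higher, at 4.37, 6.25 and 4.27 against 8.90, 8.03 and 6.80 CPM (0.69, SE 0.15, adjusted p = 0.0483, and 0.147 to 0.378 without control replicate 1 or 3 or RNAi replicate 1 or 2). CG2269 fell from 109 ± 9.90 to 78.0 ± 5.25 CPM (-0.48, adjusted p = 0.00814, and 0.0577 to 0.0753 without control replicate 3 or RNAi replicate 2 or 3). CG30419 rose from 43.0 ± 3.28 to 57.6 ± 4.02 CPM (0.43, adjusted p = 0.0176, and 0.0577 to 0.223 without control replicate 1 or 3 or RNAi replicate 1), and lute fell from 78.9 ± 5.03 to 62.3 ± 2.45 CPM (-0.34, adjusted p = 0.0439, and 0.0948 to 0.315 without control replicate 1 or 2 or any 1 RNAi replicate). lute overlaps Brf on the opposite strand.

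The 10 genes just past the threshold had adjusted p of 0.0510 to 0.0530. Besides Con, dpr15 and MtnA they were asRNA:CR45009 (log2 fold change 0.94), dar1 (1.59), Sptz (0.47), His3.3A (-0.34), CG32647 (0.49), CG33286 (1.54) and CG6280 (0.69). dar1, a zinc-finger regulator of dendrite growth, stood at 0.63, 0.63 and 1.16 CPM in control and 2.24, 3.33 and 1.76 CPM in RNAi libraries. His3.3A, a replication-independent histone, stood at 215, 213 and 191 CPM in control and 160, 153 and 176 CPM in RNAi libraries. In both the groups did not overlap, as in the genes that were called.

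The share of nuclear genes called was largest on arm 2R, and few called genes were neighbours. On arm 2R 14 of 1697 genes tested were called (0.825%), against 0.364% of all genes tested. On 2L 7 of 1518 were called (0.461%), and on X, 3L and 3R 3 each (0.199%, 0.173% and 0.143%). Among nuclear genes, the only pair of calls within 50 kb of each other was nompA and Fpps, both on the minus strand of 2R, at 11310335 to 11318676 and 11305511 to 11307528. CG12983 on 3L lay next to CG33286, which just missed the threshold (log2 fold change 1.54). Around daw 0 of 15 genes tested within 50 kb were called and 3 had an unadjusted p under 0.05: Duox, an NADPH oxidase gene, at 1.14, G6P at 0.58 and RpS21 at 0.27 (log2 fold changes, edgeR adjusted p = 0.391, 0.290 and 0.153). That level was reached by 8.69% of all genes tested. Syt1, the synaptic calcium sensor gene beside daw, was 316 ± 52.96 CPM in control and 343 ± 10.7 CPM in RNAi neurons. Around dachs 0 of 17 genes were called, and around shep 0 of 11.

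To see which larval responses recurred later, the same genes were read in pupal neurons, where 672 genes passed the same test (7.65%), 3.48% higher and 4.17% lower. The 2 stages used separate control libraries but one common estimate of the spread. Of the 32 larval calls 12 were also called in pupae, 4 higher and 8 lower and each in the same direction, which is 37.5% of the larval calls and 1.79% of the pupal calls. They were shep, daw, dachs, ftz, nompA, lncRNA:CR45625, Atox1, CG30419, bark, frj, CG10444 and lute. daw rose from 0.28 to 48.5 CPM in pupal neurons (log2 fold change 7.37 ± 0.28 SE, with an edgeR adjusted p of 7.49e-15) and ftz from 0.14 to 2.97 CPM (4.27, SE 0.69, adjusted p = 0.000323). nompA fell from 3.15 to 0.10 CPM (-4.87, SE 0.61, adjusted p = 1.29e-05) and dachs from 2.30 to 0.55 CPM (-1.88, SE 0.51, adjusted p = 0.0261). bark rose more in pupae, from 0.47 to 1.85 CPM (1.93, SE 0.44, adjusted p = 0.00751), but neither its stage difference nor those of the 4 genes before it passed the test (adjusted p = 0.423 to 0.777).

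Of the 32 genes 27 had the same sign at both stages, 4 the opposite sign (CG4839, CG2812, Drep3 and CG2201), and CG12983 no pupal count. The difference between pupal and larval response was called for 32 of 8784 genes (0.364%), 2 of which were among the larval calls. CG2812 was 0.47 ± 0.096 and 1.86 ± 0.38 CPM in larval control and RNAi neurons and 3.42 and 2.71 CPM in pupal ones, a pupal minus larval difference of -2.30 (SE 0.47, edgeR adjusted p = 0.0201). Drep3 was 7.11 ± 0.33 and 4.27 ± 0.30 CPM in larvae and 38.0 and 44.9 CPM in pupae, a difference of 0.98 (SE 0.19, adjusted p = 0.0131). CG12983 had no count in any pupal library, and CG4839 stood at 0.047 and 0.059 CPM in pupal control and RNAi neurons, so that no pupal response could be read for either. Nrk, at 10.5 and 9.26 CPM in pupae, was far lower there than in larval neurons and was not called (-0.20, SE 0.14, adjusted p = 0.423).

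**Figure D4:**
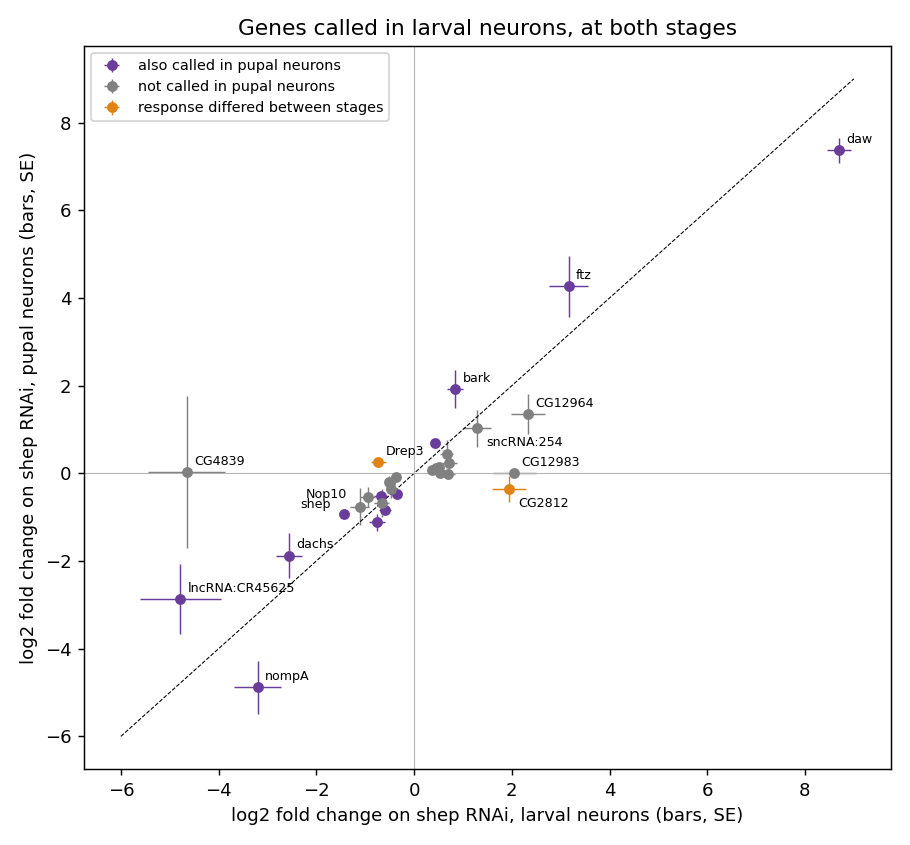
Log2 fold change of shep RNAi minus control in pupal neurons (vertical axis) against larval neurons (horizontal axis) for the 32 genes called in larval neurons, with bars for the SE and a dashed line of equal change. Purple points were also called in pupae, grey points were not, and orange points (CG2812 and Drep3) had a stage difference that passed the test.

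**Figure D5:**
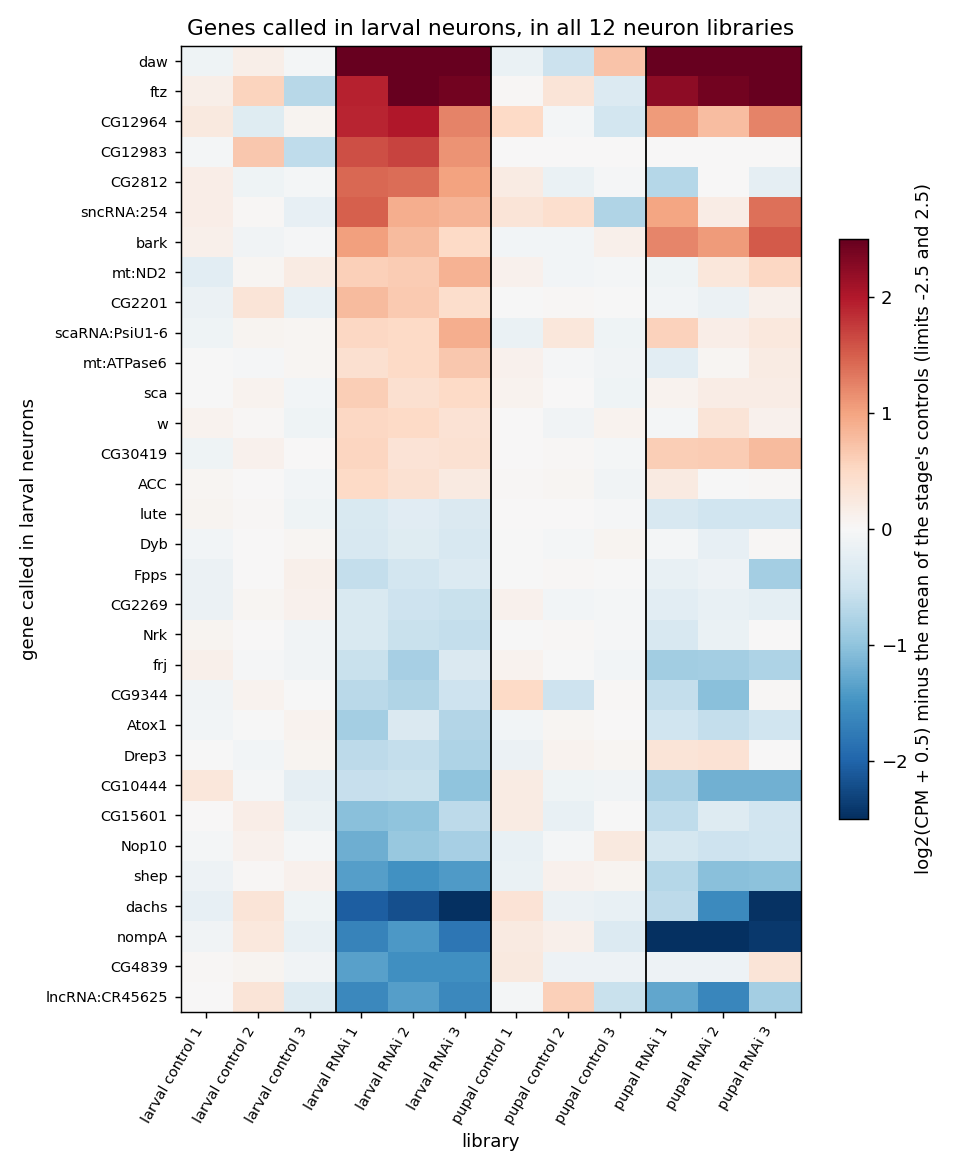
Log2(CPM + 0.5) of the 32 genes called in larval neurons, each minus the mean of the control libraries of its stage, in the 12 neuron libraries (columns, blocks of 3 by group). Colours run from blue (lower) through white to red (higher) with limits at -2.5 and 2.5; the 3 larval RNAi columns are all red in the upper 15 rows and all blue in the lower 17.

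In BG3 cells, where 369 of 6816 genes tested were called (5.41%, with 3.35% higher and 2.07% lower), 21 of the 32 genes had a value. shep was lower after shep dsRNA (log2 fold change -1.08 ± 0.085 SE, with an edgeR adjusted p of 1.26e-06), and mt:ATPase6 was lower as well (-0.52, adjusted p = 0.0389), against the larval direction. daw had a log2 fold change of 0.12 in BG3 cells (SE 0.15, adjusted p = 0.735) and dachs one of -0.01 (SE 0.19, adjusted p = 0.990). Of the genes not tested there, ftz, nompA and CG4839 were among those too low to pass the filter.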

How the data were processed

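RNA from sorted neurons and from BG3 cells was sequenced with the Nugen Ovation kit, per the labels' protocols. The authors deposited raw counts of reads per gene for 18 libraries; per the submitters' processing notes the tools included cutadapt 1.10, HISAT2 2.0.4 and featureCounts 1.5.0-p3, with the dm6 genome. The strand setting and the treatment of multiply mapping reads are not given in the sources used here. Symbols and positions came from Ensembl release 115 for 17210 of 17402 genes.

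The 12 neuron libraries were fitted together with edgeR 4.0.16 (filterByExpr, TMM scaling, robust quasi-likelihood, group means, 8 residual degrees of freedom), with Benjamini-Hochberg adjustment over 8784 genes and a threshold of 0.05 with no minimum fold. BG3 libraries were fitted separately. Count ratios have exact 95% intervals that cover counting error only. Alternatives were DESeq2 1.42.0, limma 3.58.1 with voom, other scalings and filters, a replicate block, removal of a gene length trend and leaving out each library. The fit was also run on simulated data, and no value given here comes from that run.

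The rule for named genes took shep, every gene called, the 10 nearest to the threshold, as many as 4 genes per list in order of p, any member of a list under 25 genes that held a call, check genes, and genes within 50 kb of daw, dachs and shep. babo, put, wit, Smox, yki, ase, dpn, wor, Scr and CTCF fall outside that rule and were chosen after their values were seen. Members and lists were chosen with earlier results of these data known.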

Additional observations from a re-analysis of the deposited data

Results flagged for a closer look

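The response to shep RNAi differed between pupal and larval neurons for 3 of the genes named above, by a test of the difference itself in edgeR. CG2812 had a pupal minus larval difference in log2 fold change of -2.30 (adjusted p = 0.0201), CG6280 one of -1.50 (adjusted p = 0.0201) and Drep3 one of 0.98 (adjusted p = 0.0131). CG6280 stood at 4.37, 6.41 and 5.14 CPM in larval control and 9.18, 8.11 and 8.14 CPM in larval RNAi libraries, and its pupal log2 fold change was -0.81 (adjusted p = 0.0562).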

How the results depend on the processing

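The 32 larval calls (15 higher, 17 lower) became 76 (42 and 34) with no filter on low counts, 49 (27 higher) with all 18 libraries in one fit, 15 (5 and 10) at an adjusted p under 0.01 and 12 (6 and 6) with a minimum of 2-fold. More genes were called higher with RLE size factors (24), DESeq2 (25) and limma-voom (23). Leaving out 1 library gave 10 to 52 calls, 4 to 30 higher and 6 to 26 lower. Replicate numbers did not pair the samples (correlations of -0.030, -0.051 and -0.022). With the replicate as a block within stage the 12 neuron libraries gave 24 calls, 22 of them among the 32, and the calls of CG30419, Drep3, w, frj, Dyb, lute, Fpps, ACC, CG2201 and sncRNA:254 were lost. With the block the 6 larval libraries alone gave 51 calls (30 higher), 26 among the 32, without Atox1, Drep3, frj, lute and CG2201, and lncRNA:CR45625 had no value. The 6 larval libraries with no block lost Atox1, frj, CG10444, lute and CG2201, DESeq2 lost CG4839, Fpps, CG12983 and sncRNA:254, and limma-voom lost Drep3, CG2201 and sncRNA:254. Removing the gene length trend lost CG9344, Fpps, ACC, CG12983 and CG2201, and the fit of all 18 libraries lost mt:ND2. The 32 genes with a stage difference became 116 with DESeq2, 102 with no filter, 9 with the replicate block within stage, 5 at an adjusted p under 0.01, 7 with a minimum of 2-fold and 13 to 89 without 1 library; the 6 larval libraries alone give no such value. The cause of these moves was not tested, except that stricter thresholds admit fewer genes by construction. None of the 32 genes changed direction in any alternative that gave it a value; genes not called were not followed in this way. List medians near 0 did change sign. Under another scaling these included those of myosins, pigment genes, cell death genes, neuronal RNA-binding proteins and neuron markers. Without 1 library they included those of myosins, pigment, cell death, ribosomal protein, channel, cell cycle, Hox and insulator genes and of neuron markers. Genes under 5 CPM rest on few reads, and their fold changes are the least precise.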

Other observations

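Genes of cell division and of neuropeptides held 0 calls by edgeR. Of 44 cell cycle and replication genes 33 had a negative log2 fold change, 0 had an unadjusted p under 0.05 in either direction, and the median was -0.10. Of 18 neuropeptide genes tested 12 were positive, with 2 higher and 1 lower with an unadjusted p under 0.05. Their median was 0.45, the largest of any list, and 0.23 to 0.49 without 1 library. Of 30 heat shock and stress genes 2 were higher and 1 lower at that level, with a median of 0.09. Over all genes tested the median was -0.0045, and 4.35% were higher and 4.34% lower at that level.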
